A study of Mus musculus with 12 samples.

Results

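Interleukin-1 (IL-1) family ligands and receptors were described in the cortex of aged E4FAD mice from the counts of 9 genes, Il1a, Il33, Il18, Il18bp, Il1r1, Il1rl1, Il1rl2, Il1rap and Il1rapl1. They were found by matching the mouse gene identifiers of the count table to these symbols in the GENCODE annotation of GRCm38. The table holds 50563 genes, 15688 of them had enough counts to be tested, and all 9 members were among those tested.

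Total RNA of brain cortex was sequenced as poly(A)-selected RNA-Seq libraries from 12 E4FAD mice, 1 library per mouse. All 12 carried the genotype APOE4+/+, 5FAD-/+, in which human APOE4 replaces the mouse gene and mutant human amyloid precursor protein and presenilin transgenes are driven in neurons by the Thy1 promoter, so no mouse without these alleles was compared. The CTRL group of 7 mice (2 aged 12 months and 5 aged 14 months) received the vehicle, which contained antioxidants, and the DPAn-6 group of 5 mice (2 aged 12 months and 3 aged 14 months) received DPAn-6, a docosapentaenoic acid of the omega-6 class of fatty acids, both by daily oral gavage. Both groups held females and males, and sex is not labelled mouse by mouse.

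IL-1 family cytokines are alarm and activation signals that are released by damaged or activated cells. Each binds its own receptor chain, which then recruits a shared accessory chain (IL1RAP for IL-1, IL-33 and IL-36), and the joined intracellular domains pass the signal through MYD88 and IRAK kinases to NF-kappaB and MAP kinases. In brain, IL-1 and IL-18 are known as products of microglia, IL-33 as a nuclear cytokine of astrocytes and oligodendrocytes, and decoy receptors, antagonists and binding proteins limit the signal.

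Total counts ranged from 15339098 to 19500154 per mouse in CTRL and from 15208803 to 26520251 in DPAn-6, so that 1 count was worth 0.0377 to 0.0658 CPM. Slc17a7, which marks excitatory neurons of the cortex, was at 1217 to 2028 CPM over the mice. CPM is the deposited count scaled by the mouse's total count on genes, so that the values of all genes sum to the same total in every mouse. One CTRL mouse, replicate 3, stood apart: it was the highest or the lowest CTRL mouse at 30.5% and 39.5% of the genes tested, and it was the highest CTRL mouse for 7 of the 9 members (Il1a, Il33, Il1r1, Il1rl1, Il1rl2, Il1rap and Il1rapl1) and the lowest for Il18bp. It was kept, and values without it are given beside the results that depend on it. Among the DPAn-6 mice, replicate 3 was the lowest for 6 of the 9 members and at 21.1% of the genes tested. DPAn-6 replicate 4 was the highest of its group for 5 members and at 25.4% of the genes.

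Il1rl2 encodes the receptor chain for the IL-36 cytokines, and it was the member whose level fell in DPAn-6. The gene lies at chr1:40324610-40367562 on the plus strand, 7.35 kb after Il1r1 and 62.0 kb before Il1rl1, in a cluster of 6 IL-1 family receptor genes. The promoter is shown because Il1rl2 was the member that passed the test. These are the 250 bases before the RefSeq start (GRCm38.p6, chr1:40324339-40324588, plus strand, credited to RefSeq), and the capitals mark the letters TATAAA read on the opposite strand, which begin 166 bases before that start.
Il1rl2 promoter: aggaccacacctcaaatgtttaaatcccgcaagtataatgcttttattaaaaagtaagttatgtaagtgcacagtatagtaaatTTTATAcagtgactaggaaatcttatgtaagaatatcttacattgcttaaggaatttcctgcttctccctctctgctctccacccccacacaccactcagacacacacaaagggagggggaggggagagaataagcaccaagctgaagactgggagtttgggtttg

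The window of 300 bases that runs 50 bases past the start had a GC content of 43.7%, which was at percentile 19.2 of the 32851 RefSeq promoters of that length (median 52.7%), and 3 CpG dinucleotides. On both strands it held TATAAA at 1 position, as did 13.6% of all promoters at 1 or more. It held no match to the NF-kappaB site (present in 8.46%) and no GGAAGT, a sequence that ETS factors can bind (present in 23.8%). Shorter ETS sequences such as GGAA were not counted, and the printed bases do hold GGAA. The motifs searched do not overlap in this window.

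In the CTRL mice, Il1rl2 had a lowest level of 2.28, a median of 2.86 and a highest level of 3.46 CPM. In the DPAn-6 mice it was at 1.74 CPM in replicate 1, 1.96 in replicate 2, 1.21 in replicate 3, 1.51 in replicate 4 and 1.998 in replicate 5. Every DPAn-6 mouse was therefore below every CTRL mouse, which was the case for 1.49% of the genes tested. The means were 2.82 ± 0.37 CPM in CTRL (SD, n = 7) and 1.68 ± 0.33 CPM in DPAn-6 (SD, n = 5).

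The fitted log2 fold change of Il1rl2 was -0.76 with a standard error of 0.16 and a 95% interval from -1.10 to -0.42, a level 0.591 times that of CTRL. By edgeR's quasi-likelihood test the Benjamini-Hochberg adjusted p over all genes tested was 0.0287, and the unadjusted p ranked 140 of 15688. The two-sided exact permutation test of log2 CPM gave p = 0.00126, the smallest that 7 against 5 mice can give. The gene was counted by few reads, 39 to 53 per CTRL mouse and 23 to 53 per DPAn-6 mouse. The coefficient of variation between mice was 13.2% in CTRL and 19.6% in DPAn-6, against 14.3% and 17.7% from counting error alone, so the spread within the groups was about that of counting.

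**Figure D1:**
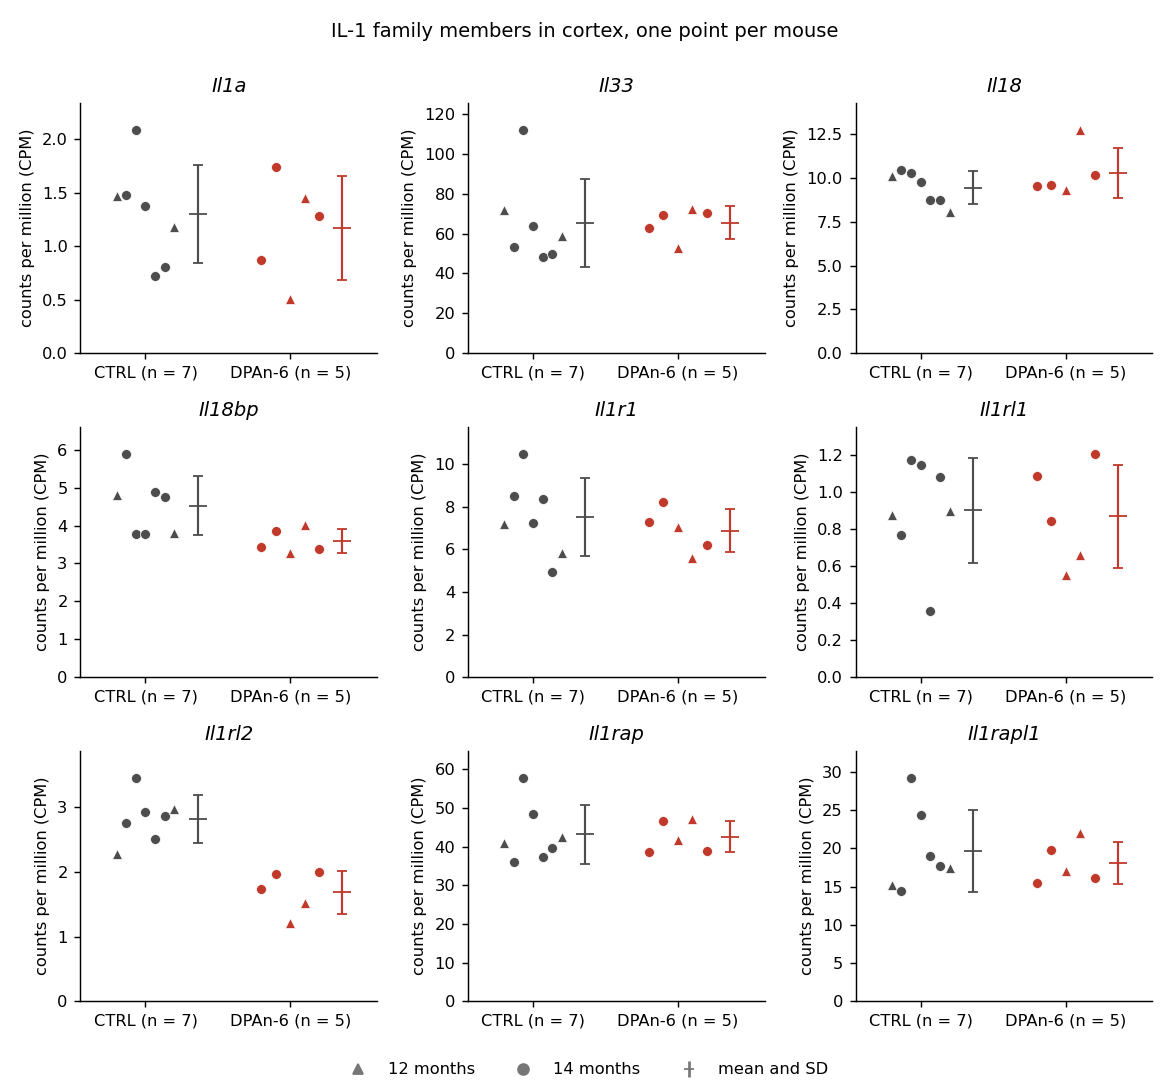
Level of each of the 9 members in CPM (y axis, from 0) in every mouse of the CTRL (grey, n = 7) and DPAn-6 (red, n = 5) groups, with triangles for 12 months, circles for 14 months, and a bar with whiskers for the mean and SD. For Il1rl2 the DPAn-6 mice sit between 1.21 and 1.998 CPM, all below the CTRL mice, whereas the groups overlap for the other members.

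Of the 9 members, 1 fell and 0 rose at an adjusted p under 0.05, where 1.55% of all genes tested were called and 1.14% were called lower. By edgeR's unadjusted p under 0.05 there were 2 members, Il1rl2 and Il18bp, where 14.5% of all genes were below it. The fitted value was below 0 for 8 of 9 members, against 51.3% of all genes tested. Over the 27 alternatives that count ran from 3 to 8. It was 7 by limma-voom and without TMM scaling, 6 in 14-month mice only, 5 without CTRL replicate 3 or without DPAn-6 replicate 3, 4 by limma-voom with sample weights, and 3 with the mean of the leptomeningeal markers as a covariate, which was added after values were seen. The median log2 fold change of the members was -0.15, and that of all genes tested was -0.0047.

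The call for Il1rl2 came from few reads, lay near the threshold, and was lost when some single mice were left out. Its edgeR adjusted p rose past 0.05, to between 0.0506 and 0.102, when any of 6 mice was left out: replicates 4 and 6 of CTRL and replicates 1, 2, 3 and 4 of DPAn-6. Leaving out CTRL replicate 3 gave 0.0151. The log2 fold change stayed between -0.83 and -0.66 whichever mouse was left out. The permutation p was under 0.05 in each of its 15 alternatives, from 0.00126 to 0.0179. Every DPAn-6 mouse was below every CTRL mouse, so leaving mice out could not change that order. These p-values therefore add no support beyond the separation itself.

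**Figure D2:**
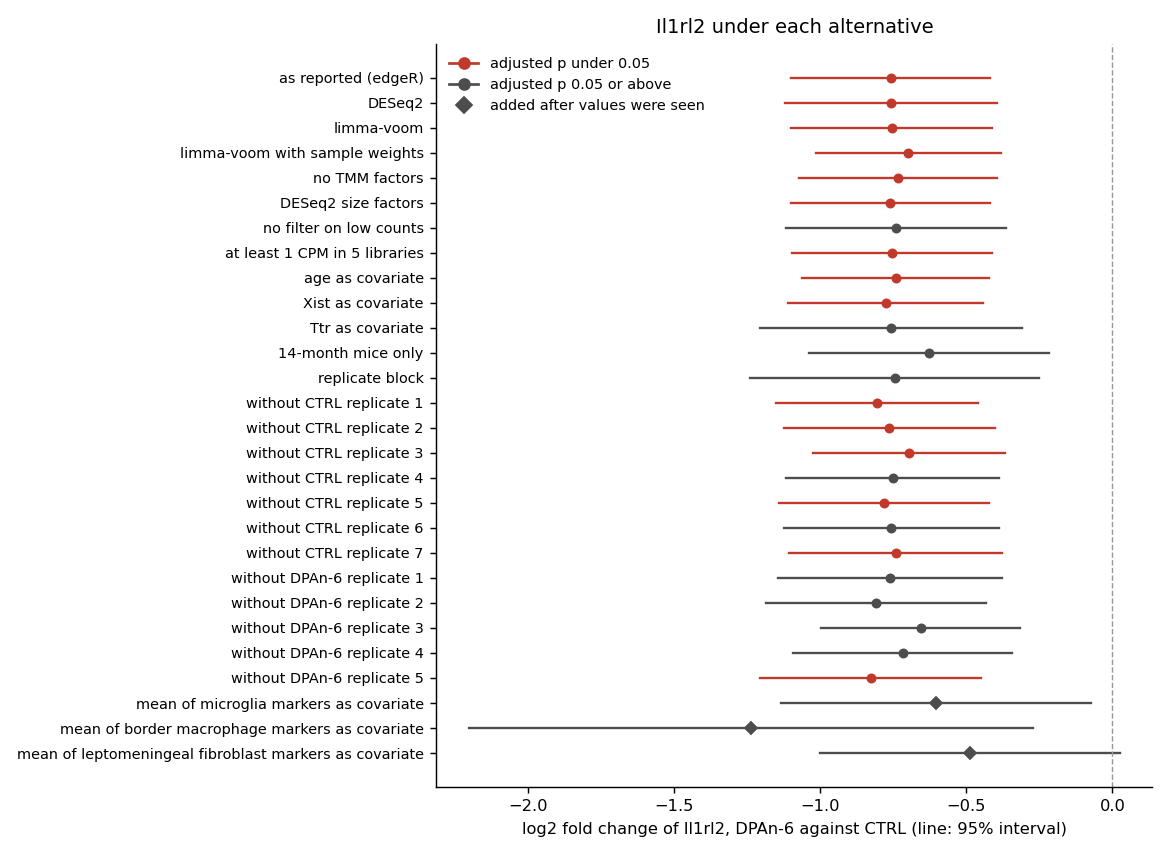
Log2 fold change of Il1rl2, DPAn-6 against CTRL (x axis), with its 95% interval as a line, as reported and under each alternative setting, in red where the adjusted p was under 0.05 and as diamonds for alternatives added after values were seen. The value stays below 0 as reported and in the 27 alternatives, from -1.24 to -0.49, and the interval reaches 0.03 with the mean of the leptomeningeal markers as a covariate.

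In bulk cortex, fewer cells of a type and less RNA per cell cannot be told apart. The markers of several cell types were lower in the DPAn-6 mice beside Il1rl2, while those of neurons and oligodendrocytes were mostly above 0. The fitted values of all 16 microglia markers were below 0, and 4 fell (Csf1r, Tmem119, C1qc and C1qb). The smallest difference was that of Cx3cr1 (-0.05, edgeR unadjusted p = 0.599). Of all genes tested, 51.3% were below 0 and 1.55% were called, shares that apply to the marker lists below as well. The summed microglia level was 1267 to 1911 CPM in CTRL and 849 to 1235 CPM in DPAn-6. The groups therefore did not overlap in this sum. Of single genes tested, 1.49% had every DPAn-6 mouse below every CTRL mouse, and no such share was computed for sums.

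Csf1r, the receptor of microglial growth factors, had a log2 fold change of -0.50 (adjusted p = 0.0282), and Tmem119, a marker of resident microglia, one of -0.77 (adjusted p = 0.0286). The groups overlapped for both genes. Csf1r was at 204.1 to 333.7 CPM in CTRL and 162.0 to 212.2 CPM in DPAn-6. Tmem119 was at 25.8 to 64.3 and 27.4 to 34.6 CPM, so its lowest mouse was a CTRL mouse. The 4 calls moved to 1 without CTRL replicate 1, to 10 without CTRL replicate 3 and to 0 without CTRL replicate 2, 4 or 6 or DPAn-6 replicate 1, 2, 3 or 4. They were 8 by DESeq2, 10 by limma-voom with sample weights, and 0 with Ttr as a covariate, in 14-month mice only and with the replicate block.

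Border macrophage markers were below 0 at 6 of 6 genes tested, and Mrc1 (-1.29, adjusted p = 0.00260), F13a1 (-1.36, adjusted p = 0.00850) and Cd163 (-1.29, adjusted p = 0.0292) fell. Their sum was 34.0 to 51.0 CPM in CTRL and 23.4 to 32.9 CPM in DPAn-6, again without overlap. With Ttr as a covariate or in 14-month mice only, 1 of the 3 calls was left.

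Leptomeningeal fibroblast markers were below 0 at 10 of 10 genes, and 4 fell (Col1a2, Slc13a4, Lum and Igf2), with sums of 134.9 to 272.3 CPM in CTRL and 80.5 to 161.4 CPM in DPAn-6. Those 4 calls moved to 2 without CTRL replicate 4 or DPAn-6 replicate 5 and to 0 without DPAn-6 replicate 2, 3 or 4, with Ttr as a covariate or in 14-month mice only.

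Mural markers, of pericytes and smooth muscle of vessels, were below 0 at 8 of 8 genes, and 1 fell, the smooth muscle myosin Myh11 (-0.76, adjusted p = 0.00551). Its level was 24.0 to 36.8 CPM in CTRL and 14.99 to 22.5 CPM in DPAn-6, and the mural sum was 325.0 to 371.5 and 285.0 to 303.9 CPM, so the groups did not overlap in either. Called mural markers were 3 by DESeq2, 4 by limma-voom with sample weights and without CTRL replicate 3, 2 without CTRL replicate 7 or DPAn-6 replicate 1, and 0 with Ttr as a covariate. Choroid plexus markers were below 0 at 6 of 6 genes tested, with 0 calls by edgeR and limma-voom, 5 by DESeq2, and 6 genes with an unadjusted edgeR p under 0.05. Without CTRL replicate 3 or 7, or with no filter on low counts, edgeR called 3 of them, and 2 with the replicate block. Their sum was 15.5 to 1732 CPM in CTRL, with a median of 37.5, and 9.14 to 26.1 CPM in DPAn-6, with a median of 11.8. Their median log2 fold change was -2.76. Other lists went the other way, with 0 calls by edgeR. Inhibitory neuron markers were above 0 at 8 of 8 genes (median 0.20), striatal neuron markers at 7 of 7 (median 0.35) and excitatory neuron markers at 6 of 8 (median 0.03). Whether the dissection of the cortex differed between the mice was not tested.

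With the mean log2 CPM of the microglia markers as a covariate, the log2 fold change of Il1rl2 was -0.61 (95% interval from -1.14 to -0.07, edgeR adjusted p = 0.661). With that of the border macrophage markers it was -1.24 (interval from -2.20 to -0.27), and with that of the leptomeningeal markers -0.49 (interval from -1.002 to 0.03), neither with an adjusted p under 0.05. These 3 covariates differ between the groups themselves and were chosen after the values had been seen. The part of these cells in the Il1rl2 result was not tested further.

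The ligands that Il1rl2 is known to bind were at or near 0 in every mouse. Il36a and Il36b had 0 counts in all 12 mice, and Il36g had 4 counts in 3 mice, out of 219205224 counts over all mice. A count of 0 allows a level of up to 0.113 to 0.197 CPM in a single library and 0.0137 CPM over all 12. Il36rn, the IL-36 receptor antagonist, had 1 to 5 counts per mouse, and Il1f10, which encodes IL-38, had 0. A difference between the groups in these ligands was not detectable at this depth.

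Among the ligands measured, Il33 encodes a nuclear cytokine that is released from damaged cells. Its level in CTRL was lowest at 48.3, with a median of 58.7 and a highest value of 112 CPM. In DPAn-6 it was 62.7, 69.3, 52.6, 72.3 and 70.5 CPM in replicates 1 to 5. All DPAn-6 mice lay within the CTRL range, whose highest value was CTRL replicate 3. The log2 fold change was -0.03 (95% interval from -0.42 to 0.37, adjusted p = 0.973), and without CTRL replicate 3 it was 0.17 (adjusted p = 0.337), so its sign turned with 1 mouse, as it did without TMM scaling (0.0039). Markers of the cells known to make IL-33 did not pass edgeR's test: astrocyte markers were below 0 at 10 of 12 genes and oligodendrocyte markers above 0 at 10 of 12, with 0 calls in each by edgeR, 1 in each by DESeq2, and 3 and 6 genes at an unadjusted p under 0.05.

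Il18 encodes a cytokine that is made as a precursor and cleaved by caspase-1. Its level in CTRL was 8.08, 9.80 and 10.4 CPM at the lowest, median and highest mouse, and in DPAn-6 it was 9.57, 9.59, 9.30, 12.8 and 10.2 CPM in replicates 1 to 5. Only DPAn-6 replicate 4 was above the CTRL range. The log2 fold change was 0.09 (interval from -0.14 to 0.33, adjusted p = 0.763). Together with that of Il1rap, this was the narrowest interval among the members.

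Il1a, an IL-1 cytokine active without cleavage, was counted by 10 to 34 reads per mouse. The CTRL levels were 0.718, 1.38 and 2.09 CPM at the lowest, median and highest mouse, and the DPAn-6 levels were 0.870, 1.74, 0.503, 1.45 and 1.28 CPM in replicates 1 to 5. The groups overlapped, with 2 DPAn-6 mice above the CTRL mean on the CPM scale. The log2 fold change was -0.17 with an interval from -0.83 to 0.48 (adjusted p = 0.859), so a change of the size of Il1rl2's lay inside its interval. Il1b, the classical IL-1 cytokine of activated microglia, had 1 to 10 counts per mouse and Il1rn, the IL-1 receptor antagonist, 0 to 9, too few to be tested.

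Il18bp encodes the secreted protein that binds and blocks IL-18. Its CTRL levels were 3.78, 4.75 and 5.89 CPM at the lowest, median and highest mouse, and its DPAn-6 levels were 3.42, 3.87, 3.27, 4.01 and 3.39 CPM in replicates 1 to 5. Each of the 5 DPAn-6 mice lay under the mean of CTRL, and 3 lay under its lowest mouse. The log2 fold change was -0.36 (interval from -0.65 to -0.07, edgeR unadjusted p = 0.0170, adjusted p = 0.217), and the exact permutation test gave p = 0.0215. Il18bp did not pass the adjusted threshold. Its exons share 80 of 3026 bases with Numa1 on the other strand, and reads in those bases cannot be assigned, because no source used here gives the strand that was counted.

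**Figure D3:**
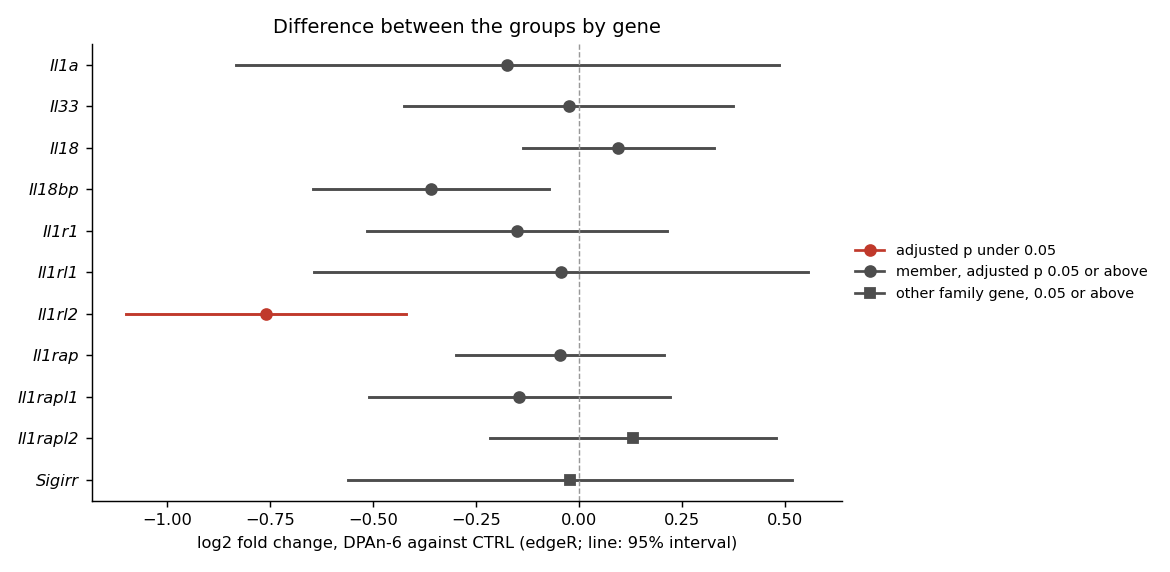
Log2 fold change, DPAn-6 against CTRL (x axis), for the 9 members (circles) and the other IL-1 family genes tested, Il1rapl2 and Sigirr (squares), with 95% intervals as lines and red for an adjusted p under 0.05. The interval of Il1rl2 ends at -0.42 and that of Il18bp at -0.07, and those of all other genes plotted include 0.

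Il1r1 encodes the signalling receptor of IL-1 and is known from endothelium and some neurons. Its levels were 4.96, 7.22 and 10.5 CPM at the lowest, median and highest CTRL mouse, and 7.28, 8.24, 7.04, 5.59 and 6.22 CPM in DPAn-6 replicates 1 to 5. All DPAn-6 mice lay within the CTRL range (log2 fold change -0.15, interval from -0.51 to 0.21, adjusted p = 0.759). Endothelial markers, listed for comparison, were above 0 at 6 of 12 genes and below 0 at 6, with 0 calls by edgeR and DESeq2 and 2 genes at an unadjusted p under 0.05.

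Il1rl1, also called ST2, encodes the receptor of IL-33 and was counted by 7 to 32 reads. Its levels were 0.359, 0.898 and 1.17 CPM at the lowest, median and highest CTRL mouse, and 1.09, 0.841, 0.553, 0.658 and 1.21 CPM in DPAn-6 replicates 1 to 5. The groups overlapped, with 1 DPAn-6 mouse above every CTRL mouse, and the interval of the log2 fold change was wide (-0.04, from -0.64 to 0.56, adjusted p = 0.969).

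Il1rap encodes the accessory chain shared by the IL-1, IL-33 and IL-36 receptors. Its levels were 35.9, 40.9 and 57.9 CPM at the lowest, median and highest CTRL mouse, and 38.6, 46.7, 41.8, 47.1 and 38.91 CPM in DPAn-6 replicates 1 to 5. All DPAn-6 mice lay within the CTRL range, and the log2 fold change was -0.05 (interval from -0.30 to 0.21, adjusted p = 0.907). Its interval does not reach the log2 fold change of Il1rl2, the receptor chain it pairs with.

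Il1rapl1, a family member of neurons that organises synapses, ranged from 14.4 to 29.3 CPM in CTRL with a median of 17.6, and from 15.4 to 22.0 CPM in DPAn-6 with a median of 17.0. The log2 fold change was -0.15 (interval from -0.51 to 0.22, adjusted p = 0.770). The related Il1rapl2 had a value of 0.13 (adjusted p = 0.787), and Sigirr, an inhibitory receptor, one of -0.02 (adjusted p = 0.984). Il1r2, the decoy receptor of IL-1, had 1 to 7 counts per mouse, Il18r1 had 1 to 5 and Il18rap, the accessory chain of the IL-18 receptor, 0 to 7, too few to be tested.

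The cluster on chromosome 1 that holds Il1r2, Il1r1, Il1rl2, Il1rl1, Il18r1 and Il18rap spans 478 kb from 40074079 to 40551705. Of its 3 genes tested, Il1rl2 fell, while Il1r1 on one side and Il1rl1 on the other had the values given above. Map4k4, the next gene before the cluster, had a log2 fold change of -0.13 (adjusted p = 0.570), and Slc9a4 after it had too few counts to be tested.

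Levels between genes were compared per length, as CPM per kb of annotated exon averaged over the 12 mice. Il33 was highest at 22.7 ± 5.9 CPM per kb (SD, n = 12), followed by Il18 at 9.50 ± 1.14, Il1rap at 3.79 ± 0.54, Il1rapl1 at 2.03 ± 0.47, Il18bp at 1.37 ± 0.26, Il1r1 at 1.14 ± 0.24, Il1a at 0.631 ± 0.230, Il1rl2 at 0.345 ± 0.099 and Il1rl1 at 0.129 ± 0.039. Il33, Il18 and Il1rap were each above the next gene in the order in all 12 mice. Il18bp was above Il1r1 in 8 of 12 mice, so that pair did not differ beyond its spread. Exon length matters here, since over the longest transcript in place of all exons Il18 was at 11.1, Il1rap at 9.51 and Il1rl2 at 0.601 CPM per kb. On that length Il1rap was above Il18 in CTRL replicate 3 (12.8 against 11.6) and CTRL replicate 7 (9.42 against 9.13).

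Il18, at 9.50 CPM per kb, therefore stood far above both chains of its receptor, with Il18r1 at 0.022 and Il18rap at 0.027 CPM per kb. Il33 stood likewise above its receptor Il1rl1. Il1rl2, whose ligands were at or near 0, was above Il1b in 11 of 12 mice on this scale.

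**Figure D4:**
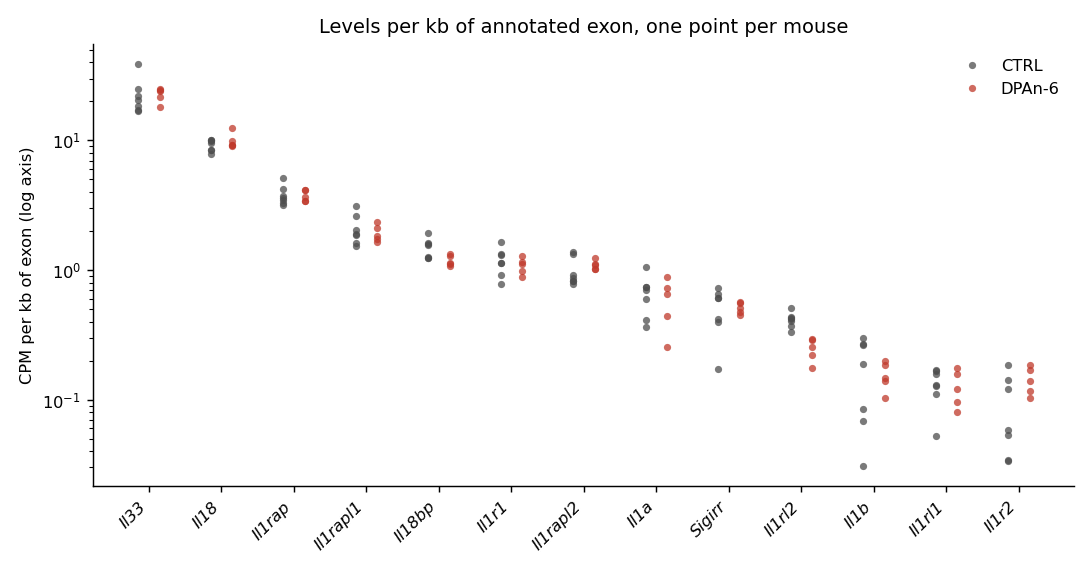
Level in CPM per kb of annotated exon (y axis, log axis) of the 13 IL-1 family genes with the highest means, ordered by the mean of the 12 mice, with 1 point per mouse in CTRL (grey) and DPAn-6 (red). Il33 and Il18 lie above all other family genes in every mouse, and Il1rl2 is the gene whose groups separate.

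The ages divided the mice further. In the 12-month mice, Il1rl2 was at 2.28 and 2.97 CPM in the 2 CTRL mice and at 1.21 and 1.51 CPM in the 2 DPAn-6 mice. In the 14-month mice it was between 2.51 and 3.46 CPM in CTRL (n = 5) and between 1.74 and 1.998 CPM in DPAn-6 (n = 3). The groups did not overlap at either age, which follows from their separation over all mice and is no further evidence. In the 14-month mice alone, the log2 fold change was -0.63 (interval from -1.04 to -0.22, edgeR adjusted p = 0.328). The exact permutation test gave p = 0.0179, the smallest that 5 against 3 mice can give, which the separation over all mice fixed in advance.

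Between 14 and 12 months, with the group in the model, 0 members and 0 genes (0.0% of those tested) passed edgeR's adjusted threshold, 279 genes had an unadjusted p under 0.05, and limma-voom also called 0 genes. Il1rl2 had the log2 fold change 0.29 for 14 against 12 months (unadjusted p = 0.0888, interval from -0.05 to 0.62). The interaction of treatment and age was called for 1 gene, 0.00637% of those tested, and for 0 members. That gene was Pcdha8, a neuronal protocadherin named after its value was seen (log2 difference 3.66, adjusted p = 0.0289). At an unadjusted p under 0.05 there were 669 genes, and limma-voom called 1 gene. For Il1rl2 the difference of the treatment effect between the ages was 0.33 (interval from -0.36 to 1.01, unadjusted p = 0.322).

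The pathway behind the receptors was read from 4 further lists. Of 23 receptor-proximal signalling genes, all tested, 14 had values below 0, and 1 fell. That gene was Map2k6, a kinase that activates p38 MAP kinase, between 13.9 and 18.5 CPM in CTRL and between 9.62 and 11.9 CPM in DPAn-6. Every DPAn-6 mouse was below every CTRL mouse, as for 1.49% of all genes tested (log2 fold change -0.61, adjusted p = 0.0101). The kinases Irak4 (-0.37, edgeR unadjusted p = 0.0259) and Irak3 (-0.42, unadjusted p = 0.0473), which start and restrain the signal, did not pass the adjusted threshold, and the adaptor Myd88 had a value of -0.0044.

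Of 19 NF-kappaB genes, all tested, 11 had values below 0 and 0 were called by edgeR and DESeq2, against 1 by limma-voom with sample weights and 1 without CTRL replicate 3, and 1 had an unadjusted p under 0.05. The smallest unadjusted p were those of Tnfaip3, an enzyme that ends NF-kappaB signalling (-0.35, edgeR adjusted p = 0.201), and the NF-kappaB inhibitors Nfkbie (-0.29, adjusted p = 0.429) and Nfkbia (0.30, adjusted p = 0.444). Of 17 inflammasome and precursor processing genes, 14 were tested, 11 were below 0, 0 were called by edgeR and DESeq2, and 1 had an unadjusted p under 0.05. Casp1, the enzyme that cleaves IL-1 and IL-18 precursors, had a value of -0.09, and the smallest p were those of Txnip (-0.28, edgeR adjusted p = 0.228), Panx1 (0.22, adjusted p = 0.399) and Casp8 (-0.25, adjusted p = 0.439).

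Of 23 genes known to be induced by IL-1, 10 had enough counts to be tested, 7 were below 0, 0 were called by edgeR and DESeq2, and 1 had an unadjusted p under 0.05. The smallest p were those of the complement gene C3 (-0.55, edgeR adjusted p = 0.336), the adhesion molecule Vcam1 (-0.21, adjusted p = 0.622) and the prostaglandin synthase Ptges (-0.14, adjusted p = 0.679). The cytokine Il6 had 0 to 4 counts per mouse and Csf3 had 0 in all mice. Over these lists and the other family genes together, 68 of 94 genes were tested, 44 were below 0 with a median of -0.08, and 1 was called. Of all genes tested, 51.3% were below 0 with a median of -0.0047, and 1.55% were called. The 1 call among 68 genes was about that share, so it is not read as a result of the pathway.

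**Figure D5:**
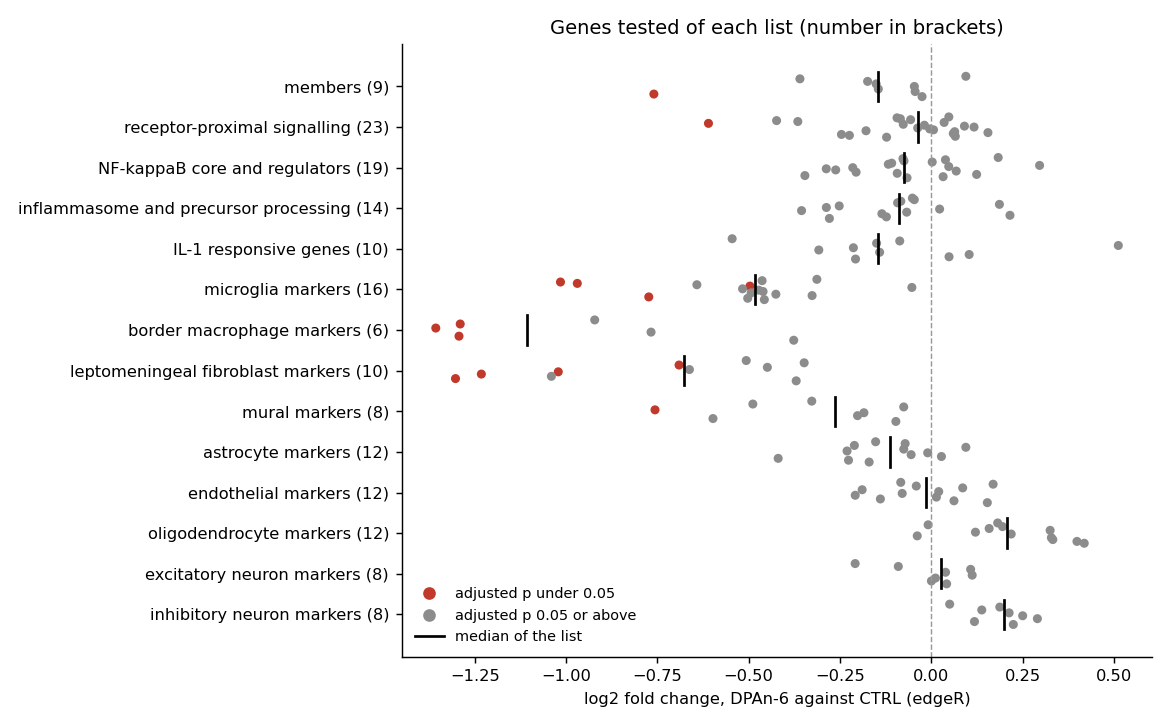
Log2 fold change, DPAn-6 against CTRL (x axis), of the genes tested in the members, the 4 pathway lists and 9 marker lists, with a black line at each list's median and red points for an adjusted p under 0.05. The pathway medians lie between -0.15 and -0.04, and those of microglia, border macrophage and leptomeningeal markers between -1.11 and -0.48.

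The genes whose level followed that of Il1rl2 most closely across the 12 mice, after each group's mean was removed, were Plcb2 (Pearson r = 0.879), Snrnp35 (0.876), Bbox1 (0.865), Exoc3l (0.860) and Tbx15 (0.835). They were the highest of 15687 genes compared, all 12 mice are shared by every pair, and Il1rl2 was highest in CTRL replicate 3. The spread of Il1rl2 within the groups was about that of counting, so these correlations cannot be told from counting error. Whether these genes are regulated together with Il1rl2 was not tested. Their own log2 fold changes lay between -0.44 and 0.13, and none of these 5 was called by edgeR.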

How the data were processed

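RNA-Seq counts came from the cortex of 12 mice, 7 CTRL and 5 DPAn-6, grouped by the sample labels. The authors aligned the reads with STAR (2.5.3a in the submitters' processing notes) to GRCm38 with Ensembl annotation and deposited raw read counts for each gene, not normalized. Which strand was counted is not given in the sources used here. Of 50563 gene identifiers, 50339 were matched in GENCODE M21. Totals per mouse were 15208803 to 26520251, and intervals and upper limits from counts cover counting error only. The labels call the libraries separate samples, 1 per mouse, and p-values measure the spread between them.

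The counts were fitted in R 4.3.3 by edgeR 4.0.16, with TMM factors, the filter filterByExpr on the groups and the functions glmQLFit and glmQLFTest. The group was the only term, and p-values were adjusted (Benjamini-Hochberg) over all 15688 genes tested. A gene was said to have risen or fallen at an adjusted p under 0.05. The age term was tested with the group in the model, and the interaction with both. For the members, an exact permutation test (two-sided, 792 assignments) compared mean log2 CPM, adding a pseudocount of 0.5 to each count and scaling by the total count. A count of 0 was taken to allow 3 counts. Intervals are at 95%. The tests were tested on simulated data. At a simulated log2 change of 0.75, edgeR recovered 81.6% of the changed genes but 35.7% of those with low counts. Of the calls, 5.14% were false. Alternatives were DESeq2 1.42.0, limma-voom (limma 3.58.1) with and without sample weights, other scalings, other filters on low counts, a covariate (age, Xist or Ttr), the mice of 14 months alone, a block on the replicate number, a pseudocount of 2, the longest transcript as length, and each mouse left out in turn. The marker means as covariates were added after the data had been seen. Python 3.11.15, numpy 2.4.6, pandas 2.3.3 and scipy 1.17.1 were used.

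The members and lists were chosen with earlier results of these data known. Named are all family genes, every called gene and the 3 smallest p of each pathway list, up to 3 called genes of each marker list by p, the 5 genes most correlated with Il1rl2, and its neighbours in the cluster, while Myd88, Casp1, Il6, Csf3 and Slc17a7 were named for their roles after their values were seen. Other called markers and Pcdha8 were named because the counts were small, and Cx3cr1 as the microglia marker with the smallest difference. Promoters were matched by symbol for 9 of 9 members.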

Additional observations from a re-analysis of the deposited data

Results flagged for a closer look

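Within each group, 1 mouse far from the others was looked for in the log2 CPM of the 9 members and of Il1rapl2 and Sigirr, which made 22 groups of mice, and 3 were found. By chance about 1 in 20 groups is marked in this way. Il18 in DPAn-6 replicate 4 was the highest of 5 mice at 3.677 log2 CPM (12.8 CPM), with a gap to the next mouse of 0.717 of the group's range. Il1rl1 in CTRL replicate 5 was the lowest of 7 mice at -1.379 log2 CPM (0.359 CPM), a gap of 0.642 of the range. Sigirr in CTRL replicate 3 was the lowest of 7 mice at -0.8517 log2 CPM (0.522 CPM), a gap of 0.570 of the range.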

How the results depend on the processing

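Il1rl2 stayed lower in DPAn-6 in all 27 alternatives and kept an adjusted p under 0.05 in 14. It lost the call with no filter on low counts (-0.74, adjusted p = 0.0630), with Ttr as covariate (-0.76, adjusted p = 0.298), in 14-month mice only (-0.63, adjusted p = 0.328) and with the replicate block (-0.75, adjusted p = 0.210), and also without 6 of the single mice and with the 3 covariates added after the data were seen, where the cause was not tested. The count of members called was then 0. Il18 stayed above 0, and Il18bp and Il1rapl1 below 0, in all 27 alternatives.

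All genes called were 243, and 696 by DESeq2, 224 by limma-voom, 1267 with sample weights, 17 with Ttr as covariate, 9 in 14-month mice only, 79 with the replicate block, and 0, 0 and 1 with the microglia, border macrophage and leptomeningeal means as covariates. They were 953 without CTRL replicate 3, 137, 160, 144 and 147 without CTRL replicates 1, 2, 4 and 6, and 104, 124, 64, 93 and 108 without DPAn-6 replicates 1 to 5, so the range was 64 to 953. Members called were 0 to 1. Pathway genes called were 2 with sample weights, 0 with Ttr, in 14-month mice only and with the 3 means, and 1 to 2 with 1 mouse left out (2 without CTRL replicate 3). The interaction called 13 genes with no filter and 0 to 13 with 1 mouse left out (13 without CTRL replicate 3). The permutation test passed 0.05 for 1 member in 14-month mice only and for 1 to 2 with 1 mouse left out.

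The replicate numbers mark no shared litter or day in the labels. The correlation of the deviations of same-numbered mice ran from -0.125 to 0.220 over 5 pairs, with 1 above 0.1, and 1 mouse correlated best with its own number, so the numbers were not taken to pair the mice.

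Uncalled members turned sign as follows (cause not tested). Il33 was at 0.033 by limma-voom, 0.17 with sample weights, 0.0039 without TMM, 0.016 in 14-month mice only, and 0.15, 0.13 and 0.39 with the microglia, border macrophage and leptomeningeal means. Il1a was at 0.55 and 0.29 with the microglia and leptomeningeal means. Il1r1 was at 0.072 with sample weights, 0.14 with Ttr, and 0.046 and 0.18 with the border macrophage and leptomeningeal means. Il1rl1 was at 0.027 with sample weights, 0.20 in 14-month mice only, 0.032 with the replicate block, and 0.57 and 0.54 with the microglia and leptomeningeal means. Il1rap was at 0.039 with sample weights, and 0.085 and 0.018 with the border macrophage and leptomeningeal means. In log2 CPM, 14-month mice only gave 0.052 for Il1a and 0.29 for Il1rl1.

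With 1 mouse left out, the fitted treatment values ran from -0.35 to 0.023 for Il1a, -0.085 to 0.17 for Il33, -0.20 to 0.087 for Il1rl1 and -0.086 to 0.045 for Il1rap. The differences in log2 CPM ran from -0.37 to 0.070 for Il1a, -0.012 to 0.19 for Il33, -0.23 to 0.11 for Il1rl1, -0.050 to 0.065 for Il1rap and -0.16 to 0.015 for Il1rapl1. The age values ran from -0.076 to 0.35 for Il1a, -0.10 to 0.13 for Il33, -0.13 to 0.076 for Il18, -0.040 to 0.11 for Il18bp, -0.080 to 0.045 for Il1rap and -0.0056 to 0.24 for Il1rapl1. The interaction ran from -0.12 to 1.37 for Il1a, -0.11 to 0.38 for Il33, -0.33 to 0.015 for Il18bp and -0.28 to 0.084 for Il1r1.

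Depth limits Il1a, Il1rl1 and Il1rl2, at 7 to 53 counts per mouse, and leaves 10 of the 12 other family genes untested.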
